A study of Mus musculus with 384 samples.

Results

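The 10 transcription factors known for specifying and maintaining midbrain dopamine (DA) neurons, *Nr4a2*, *Pitx3*, *Lmx1a*, *Lmx1b*, *En1*, *En2*, *Foxa1*, *Foxa2*, *Otx2*, and *Sox6*, were followed in single cells of the adolescent mouse midbrain. They were taken by symbol from the 41266 genes in the count table, and they were read in the 209 of 384 cells that had at least 500000 reads counted on genes. All cells came from 8 DAT-Cre;Ai9(RCL-tdT) mice on C57BL6/J, 24–36 days old, of which 3 were labeled female (mice 1, 4, and 6) and 5 were labeled male. In these mice Cre is driven from the locus of the dopamine transporter, *Slc6a3*, and leaves a permanent tdTomato label, so a sorted cell is one that has expressed *Slc6a3* at some time, not necessarily a cell with *Th*. Midbrain tissue that included the hypothalamus was dissociated and sorted for tdTomato without propidium iodide, and each mouse was captured on its own Fluidigm C1 run, so mouse and run cannot be told apart. No treatment was given, and the comparisons are between classes of cells of the same mice and between the sexes.

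Midbrain DA neurons arise from the floor plate, where *Foxa1*, *Foxa2*, *Lmx1a*, *Lmx1b*, and *Otx2* act in progenitors, and *Nr4a2* and *Pitx3* come on as the cells become postmitotic. *Nr4a2* is an orphan nuclear receptor that turns on *Th*, *Slc6a3*, and *Slc18a2*. *Pitx3*, *Lmx1a*, *Lmx1b*, *En1*, *En2*, and *Otx2* are homeodomain proteins, *Foxa1* and *Foxa2* are forkhead proteins, and *Sox6* is a high-mobility-group protein. In the adult, *Sox6* is known as a marker of nigral DA neurons, and *Otx2* as a marker of DA neurons of the ventral part of the ventral tegmental area (VTA).

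On the GRCm38 mouse genome the genes lie at chr2:57106830-57124003 (*Nr4a2*), chr19:46135281-46148325 (*Pitx3*), chr1:167688230-167848741 (*Lmx1a*), chr2:33560965-33641208 (*Lmx1b*), chr1:120602487-120607991 (*En1*), chr5:28165696-28172190 (*En2*), chr12:57540628-57548029 (*Foxa1*), chr2:148042877-148046969 (*Foxa2*), chr14:48656781-48667644 (*Otx2*), and chr7:115470872-116040776 (*Sox6*). Reads on their annotated exons were counted. RefSeq promoter sequences (GRCm38.p6, 250 bases before to 50 bases after a start) were at hand for 9 of the 10 genes, with 19 starts, and not for *En2*. The promoters of *Otx2* and *Sox6* are shown because these factors were detected in largely separate cells, that of *Foxa1* because it was detected in a larger share of the cells with *Sox6* than of those with *Otx2*, and that of *En1* because it was detected in nearly all cells with *Th* and in few without. Capitals mark letters of 6 searched motifs on either strand: the NR4A response element AAAGGTCA, the homeodomain core TAATTA, the bicoid-class core TAATCC, the forkhead motif TGTTTAC, the SOX motif ACAAAG, and the cAMP response element TGACGTCA.
Otx2: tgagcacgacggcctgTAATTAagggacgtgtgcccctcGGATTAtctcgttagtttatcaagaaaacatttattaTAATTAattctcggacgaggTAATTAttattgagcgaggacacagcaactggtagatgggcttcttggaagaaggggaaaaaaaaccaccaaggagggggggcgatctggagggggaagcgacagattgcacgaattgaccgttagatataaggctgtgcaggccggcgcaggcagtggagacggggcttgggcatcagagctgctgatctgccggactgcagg
Sox6: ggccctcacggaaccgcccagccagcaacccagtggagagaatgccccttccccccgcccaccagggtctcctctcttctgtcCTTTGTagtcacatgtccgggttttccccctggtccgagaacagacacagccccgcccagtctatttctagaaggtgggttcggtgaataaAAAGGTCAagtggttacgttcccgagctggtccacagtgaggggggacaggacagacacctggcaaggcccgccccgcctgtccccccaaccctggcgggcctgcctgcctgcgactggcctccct
Foxa1: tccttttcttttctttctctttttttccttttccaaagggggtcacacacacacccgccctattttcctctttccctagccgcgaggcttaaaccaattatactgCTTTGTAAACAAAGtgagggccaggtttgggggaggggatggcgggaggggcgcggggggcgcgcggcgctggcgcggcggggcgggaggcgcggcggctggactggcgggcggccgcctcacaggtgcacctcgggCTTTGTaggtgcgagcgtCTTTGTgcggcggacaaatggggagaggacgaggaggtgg
En1: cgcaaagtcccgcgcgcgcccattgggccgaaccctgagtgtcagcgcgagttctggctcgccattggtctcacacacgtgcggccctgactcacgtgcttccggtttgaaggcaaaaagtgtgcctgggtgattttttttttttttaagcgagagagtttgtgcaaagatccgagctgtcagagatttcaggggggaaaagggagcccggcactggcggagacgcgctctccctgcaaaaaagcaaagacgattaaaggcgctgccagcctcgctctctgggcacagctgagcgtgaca
The *Otx2* sequence is that of the third of its 4 starts (chr14:48665060-48665359, minus strand) and holds TAATTA 3 times and TAATCC once, the latter on the other strand. For a gene with several starts, the one with the most matches was printed (ACAAAG not counted, the first where tied). The share of promoters with TAATTA is 5.29% and that with TAATCC 7.06%, out of 32851 promoters of this length. The shares given here are for single promoters and do not allow for that choice. The *Sox6* sequence is that of the second of its 6 starts (chr7:116030998-116031297, minus strand) and holds AAAGGTCA, found in 1.51% of promoters, and ACAAAG, found in 18.7%. The *Foxa1* promoter (chr12:57546062-57546361, minus strand) holds ACAAAG 4 times, and 2 of these overlap the only TGTTTAC, a motif in 3.65% of promoters. The *En1* promoter (chr1:120602237-120602536, plus strand) holds none of these letters. Over the 19 starts, a match was found in 1 for AAAGGTCA, 2 for TAATTA, 2 for TAATCC, 1 for TGTTTAC, 7 for ACAAAG, and 0 for TGACGTCA, which is in 1.79% of promoters.

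The 209 cells had 500672–1544810 reads each (median 780466) and a median of 9122 genes with a read. Cells were split by their own *Th* level in CPM, its reads scaled to a total of 1000000 reads on genes. There were 181 *Th*-rich cells with 1000 CPM or more, 23 *Th*-poor cells with less than 500 CPM, and 5 between. The median *Th* level was 6899 CPM in *Th*-rich and 11.6 CPM in *Th*-poor cells, and near the limits the highest *Th*-poor cell had 489 CPM and the lowest *Th*-rich cell 1083 CPM. *Th*-poor cells were sequenced to a median of 691056 reads, against 783961 in *Th*-rich cells. The label of all cells is dopamine neuron. In the *Th*-rich cells the summed level of *Th*, *Slc6a3*, *Slc18a2*, and *Ddc* was 2142–32989 CPM, and *Slc6a3* was detected in all 181. Of the 23 *Th*-poor cells, 18 had the neuronal gene *Snap25* at 100 CPM or more, and these too all had *Slc6a3* (median 387 CPM). The other 5 went against their label. In 3 of mouse 1 the astrocyte gene *Slc1a3* was at 1860–2362 CPM, 1 of mouse 3 had the myelin gene *Mbp* at 25568 CPM, and 1 of mouse 2 had neither set. Other astrocyte genes were mostly missing. *Aqp4* was at 158, 3.38, and 0 CPM in the 3 cells with *Slc1a3*. *Gfap* was detected in 1 of the 5 cells and *Aldh1l1* in 0. The factors and dopamine genes in *Th*-poor cells are therefore given with and without these 5.

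*Nr4a2* and *En1* were detected in nearly all *Th*-rich cells, whereas each of the other 8 factors was detected in 9.94–50.3% of them. A gene was called detected in a cell with 10 reads or more, and the intervals are exact 95% binomial intervals over cells. They cover counting error in the sampling of cells only, not the spread between the 8 mice, whose shares went beyond the interval for all 10 factors. The reads carry no molecular identifiers. *Nr4a2* was detected in 177 of 181 *Th*-rich cells (97.8%, interval 94.4–99.4%). Its share was 81.8–100% over the 8 mice. *En1* was detected in 173 (95.6%, 91.5–98.1%). The share was 63.6% in mouse 1 and at least 92.3% in the others. *En2*, its paralog, was detected in 18 cells (9.94%, 6.00–15.3%), all of which had *En1*.

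Among the factors of floor plate progenitors, *Lmx1a* was detected in 91 *Th*-rich cells (50.3%, 42.8–57.8%), and over mice its share was 36.4–70.0%. *Lmx1b* was detected in 39 (21.5%, 15.8–28.3%), with none in the 8 *Th*-rich cells of mouse 4 and up to 31.0% in mouse 2. *Foxa1* was detected in 86 (47.5%, 40.1–55.1%). Its share ranged from 12.5% in mouse 4 to 64.7% in mouse 5. *Foxa2* was detected in 74 (40.9%, 33.6–48.4%), with 23.1–50.0% over mice. The ranges of *Foxa1* and *Foxa2* over mice overlap.

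*Sox6* was detected in 73 *Th*-rich cells (40.3%, 33.1–47.9%) and *Otx2* in 47 (26.0%, 19.7–33.0%). Both varied widely over mice. *Sox6* was detected in 9.09% of the *Th*-rich cells of mouse 1 and in 62.5% of those of mouse 4, and *Otx2* in 7.69% in mouse 6 and 45.5% in mouse 7. *Pitx3*, a homeodomain factor that nigral DA neurons need for survival, was detected in only 30 *Th*-rich cells (16.6%, 11.5–22.8%). All 30 had *En1*, and 13 of them were from mouse 5, where the share was 38.2% against 5–18.2% in the other mice. At least 1 read of *Pitx3* was counted in 49.2% of *Th*-rich cells, so its share depends strongly on the number of reads required.

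**Figure D1:**
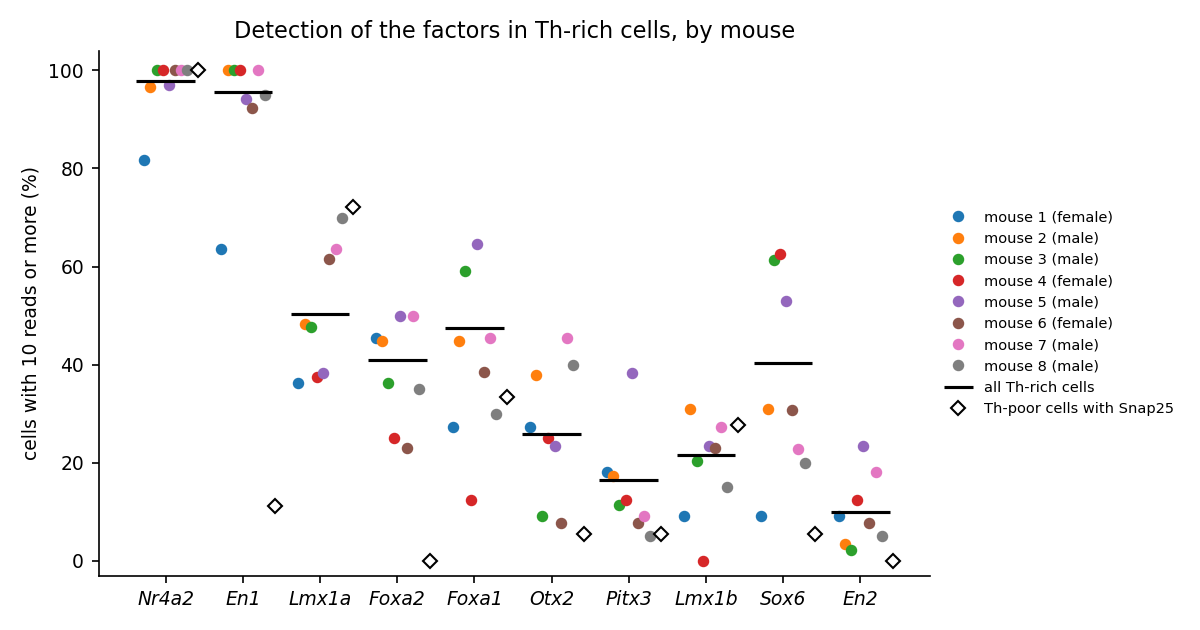
Percent of *Th*-rich cells with 10 reads or more of each factor (y axis) in each of the 8 mice (colored points), over all 181 *Th*-rich cells (bars), and over the 18 *Th*-poor cells with *Snap25* (open diamonds). The points of *Nr4a2* and *En1* lie near 100% except those of mouse 1, at 81.8% and 63.6%, and the diamonds lie far below the bars for *En1*, *Foxa2*, *Otx2*, and *Sox6* and above the bar for *Lmx1a*.

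Levels were compared between factors per kilobase of exon, on the reads of the *Th*-rich cells summed per mouse. The length was that of all annotated exons of a gene merged, 14.8 kb for *Sox6* and 1.53–4.88 kb for the others. The order depends on it. Without the division the mean of *Sox6* was 35.2 CPM, above *Otx2* at 30.8 CPM. *Nr4a2* was the highest, at 91.4 ± 17.4 CPM per kb (mean ± SD, n = 8 mice), followed by *En1* at 47.7 ± 15.2 and *Lmx1a* at 16.8 ± 5.75 CPM per kb. *Nr4a2* was above *En1* and *En1* above *Lmx1a* in 8 of 8 mice. Below them were *Foxa2* (9.34 ± 4.67), *Foxa1* (7.75 ± 6.19), *Otx2* (7.30 ± 4.65), *Pitx3* (3.82 ± 2.87), *Lmx1b* (2.71 ± 2.33), *Sox6* (2.37 ± 1.44), and *En2* (1.02 ± 0.66 CPM per kb). *Lmx1a* was above *Foxa2* in 7 of 8 mice and *Sox6* above *En2* in 7 of 8. From *Foxa2* to *Sox6*, neighbors in this order differed by less than the SD of their difference over mice.

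Without the division by length, the level of *Nr4a2* in *Th*-rich cells ranged from 284 CPM in mouse 2 over a median of 375 to 497 CPM in mouse 7. *En1* ranged from 69.9 over 121 to 201 CPM, with the lowest value in mouse 1 and the highest in mouse 5. *Otx2* ranged from 3.39 CPM in mouse 3 over 30.3 to 70.1 CPM in mouse 7. For *Sox6* the range was 10.3, 38.0, and 74.4 CPM (lowest, median, highest). These sums mix how many cells had the gene with how much each had. In the cells with the gene detected, the median level was 347 CPM for *Nr4a2*, 116 for *En1*, 88.3 for *Lmx1a*, 87.3 for *Otx2*, and 76.4 for *Sox6*, and it was lowest for *Pitx3* (24.0 CPM) and *En2* (17.8 CPM).

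A *Th*-rich cell had a median of 4 of the 10 factors (mean 4.46, at most 9), and 140 of 181 (77.3%) had at least 4. These made 81 different combinations, of which 46 were seen in a single cell. The most frequent were *Nr4a2*, *En1*, *Foxa1*, and *Sox6* in 15 cells (8.29%), *Nr4a2*, *Lmx1a*, and *En1* in 10 (5.52%), *Nr4a2*, *En1*, and *Sox6* in 8 (4.42%), and, with 7 cells each (3.87%), *Nr4a2*, *En1*, *Foxa2*, and *Otx2*, and *Nr4a2*, *Lmx1a*, *En1*, *Foxa1*, and *Foxa2*.

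Pairs of factors were described by Pearson correlation of log2(CPM + 1) over the 181 *Th*-rich cells with the mean of each mouse removed. Cells of a mouse share a run, and depth and dropout act on all genes of a cell, so these values carry no test. The highest was that of *Nr4a2* with *En1* (r = 0.51), and the lowest that of *Sox6* with *Otx2* (r = -0.40). *Sox6* was also low with *Lmx1a* (r = -0.30). It was detected in 26.4% of cells with *Lmx1a* and in 54.4% of cells without. *Foxa1* was low with *Otx2* (r = -0.26), which was detected in 12.8% of cells with *Foxa1* and in 37.9% of cells without. *Foxa2* went the other way (r = 0.27), with *Otx2* in 36.5% of cells with *Foxa2* and 18.7% of cells without. The paralogs *Foxa1* and *Foxa2* were near 0 (r = -0.07, 34 cells with both), and so were *Lmx1a* and *Lmx1b* (r = 0.03, 22 cells with both).

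**Figure D2:**
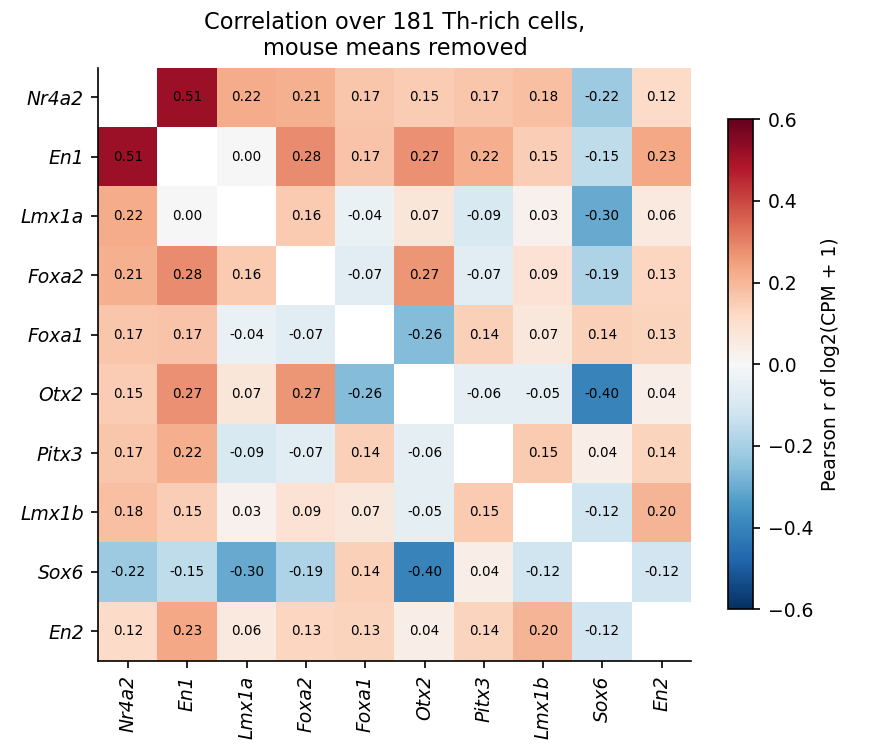
Pearson r of log2(CPM + 1) between the 10 factors over 181 *Th*-rich cells after removal of each mouse's mean, from blue (negative) to red (positive). *Nr4a2* with *En1* is the darkest red cell (0.51) and *Sox6* with *Otx2* the darkest blue (-0.40), and *Sox6* has negative values with 7 of the other 9 factors.

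*Th*-rich cells without *Nr4a2* were rare and had few of the other factors. There were 4 of them, in mice 1, 1, 2, and 5, and none had *Lmx1a*, *Lmx1b*, *Foxa1*, *Foxa2*, or *Otx2* detected. *Sox6* was detected in 3 of the 4, at 108, 127, and 423 CPM, and *En1* in 1, at 16.2 CPM. All 4 had the GABA synthesis gene *Gad2* (at 22.8 CPM or more), which was detected in 29 of 177 *Th*-rich cells with *Nr4a2* (16.4%). *Dlx1*, a homeodomain factor of forebrain GABA neurons, was detected in 3 of the 4 and in 2 of the 177 (1.13%). The LIM-homeodomain factor *Isl1* was detected in 2 of the 4 and in 0 of the 177 (upper limit 2.06%). The tissue included the hypothalamus, and the position of each cell was not used here. *En1* was missing from 3 of these cells and from 5 more that had *Nr4a2*. Of these 8 cells 6 had *Gad2*, 2 had *Lmx1a*, and none had *Foxa1*, *Lmx1b*, or *Otx2*.

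*Sox6* and *Otx2* were detected together in 3 of 209 cells, *Sox6* without *Otx2* in 73, *Otx2* without *Sox6* in 45, and neither in 88. *Otx2* was detected in 0 of 3 cells with *Sox6* in mouse 1, 1 of 9 in mouse 2, 0 of 27 in mouse 3, 0 of 6 in mouse 4, 0 of 18 in mouse 5, 0 of 4 in mouse 6, 2 of 5 in mouse 7, and 0 of 4 in mouse 8. In the same order of mice, it was detected in 3 of 15, 10 of 25, 4 of 18, 2 of 6, 8 of 20, 1 of 13, 9 of 19, and 8 of 17 cells without *Sox6*. The share with *Otx2* was thus lower among cells with *Sox6* in 8 of 8 mice. The mean of the mice was 6.39% against 32.2%, a difference of -25.8 ± 14.3 percentage points (SD, n = 8 mice, exact two-sided sign-flip permutation test over mice, p = 0.0078125, the smallest this test can give). In mouse 7 the shares were close, 40.0% of 5 cells and 47.4% of 19, and without it the mean share among cells with *Sox6* was 1.59%. In mouse 1, 2 of the 3 cells with *Sox6* were cells with *Slc1a3* that went against their label. Without the 5 such cells mouse 1 had too few cells with *Sox6*, and the difference over the other 7 mice was -27.1 points, lower in 7 of 7 (exact permutation p = 0.015625, the smallest possible with 7 mice). Over *Th*-rich cells alone it was -35.3 points, again in 7 of 7 mice and with the same p by the exact permutation test. With a single read required, 19 cells had both factors, and the mean share was 16.6% among cells with *Sox6* and 42.2% among the others, lower in 7 of 8 mice (exact permutation p = 0.0234375). With every cell thinned to 500000 reads, 2 cells had both, and the share was again lower in 7 of 8 mice (exact permutation p = 0.03125). With at least 50 reads required, no cell had both factors, among 46 with *Sox6* and 29 with *Otx2*, but only 5 mice could be compared and the difference did not pass (-14.6 points, exact permutation p = 0.125, smallest possible 0.0625).

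The 3 cells with both were all *Th*-rich. One of mouse 2 had 83 reads of *Sox6* and 10 of *Otx2*, and 2 of mouse 7 had 18 and 36 reads of *Sox6* and 73 and 86 of *Otx2*. Only the second cell of mouse 7, with 55.3 CPM of *Sox6* and 132 CPM of *Otx2*, had more than 20 reads of both. Antisense genes had few reads. *Sox6os* had 18 reads in all and reached 10 in no cell, and *Otx2os1* reached 10 in 5 cells, 3 of them with *Otx2*. Whether strand was used in counting is not stated, and without it reads of a gene and its antisense partner cannot be told apart.

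**Figure D3:**
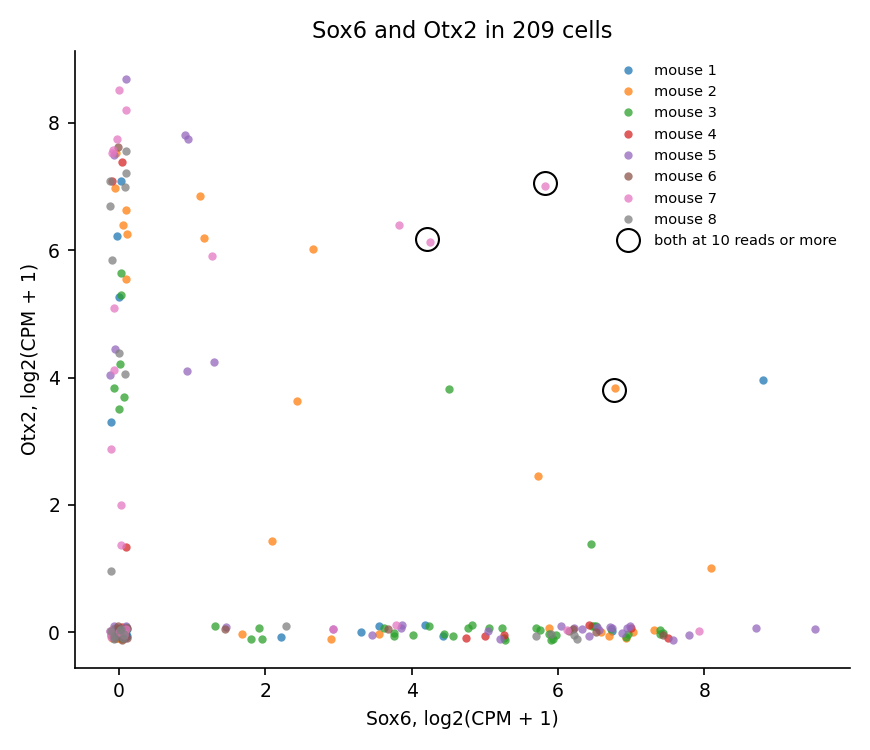
Level of *Sox6* (x axis) and *Otx2* (y axis), both log2(CPM + 1), in each of 209 cells, colored by mouse, with a small random shift along both axes. Nearly all points lie along one of the axes, and circles mark the 3 cells with 10 reads or more of both, 1 of mouse 2 and 2 of mouse 7.

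Among *Th*-rich cells, 70 had *Sox6* and not *Otx2* (*Sox6*-only) and 44 had *Otx2* and not *Sox6* (*Otx2*-only). *Foxa1* was detected in 61.4% of *Sox6*-only and 25.0% of *Otx2*-only cells, and *Foxa2*, its paralog, in 30.0% and 54.5%. *Lmx1a* was detected in 32.9% and 59.1%, *Lmx1b* in 14.3% and 22.7%, and *En2* in 4.29% and 20.5%. For *Nr4a2* (95.7% and 100%), *En1* (95.7% and 100%), and *Pitx3* (17.1% and 18.2%) the shares were close. The 64 *Th*-rich cells with neither had the highest share of *Lmx1a*, at 64.1%. These shares pool cells of mice that differ in their mix of classes. Mice 3 and 5 gave 27 and 18 *Sox6*-only but 4 and 8 *Otx2*-only cells. They also had the highest shares of *Th*-rich cells with *Foxa1*, 59.1% and 64.7%.

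These classes were compared across all genes on reads summed per mouse in 5 mice that had 3 or more cells in both (mice 2, 3, 5, 7, and 8, all male, with 3–27 *Sox6*-only and 4–10 *Otx2*-only cells). With edgeR's quasi-likelihood test and Benjamini-Hochberg adjustment over 11790 genes, 11 genes (0.0933%) were higher and 15 (0.127%) lower in *Sox6*-only cells, *Sox6* and *Otx2* among them because they set the classes. With the mouse as a block 4 genes passed (0.0339%), *Sox6* among them but not *Otx2* (adjusted p = 0.0914, edgeR), and with DESeq2 176 (1.49%). Of the other 8 factors, 0 passed in edgeR, with or without the block, and 0 in DESeq2. An unadjusted edgeR p under 0.05 was reached by 781 of the 11790 genes (6.62%) and by 1 of the 8 factors. The median log2 fold change of the 8 was -0.39, and that of all genes -0.01.

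That factor was *Foxa1*. Its level in *Sox6*-only and *Otx2*-only cells was 8.92 and 23.1 CPM in mouse 2, 27.6 and 12.0 in mouse 3, 94.1 and 28.7 in mouse 5, 95.4 and 7.51 in mouse 7, and 32.6 and 7.48 in mouse 8. It was higher in *Sox6*-only cells in 4 of 5 mice, and the ranges of the classes overlap (log2 fold change 1.76 ± 0.67 (SE), adjusted p = 0.614, edgeR). *Foxa2* was lower in *Sox6*-only cells in 4 of 5 mice, with 19.9 and 52.3 CPM in mouse 2, 11.5 and 22.2 in mouse 3, 13.1 and 44.1 in mouse 5, 30.5 and 39.0 in mouse 7, and 32.6 and 21.8 in mouse 8 (-0.68 ± 0.49, adjusted p = 0.935, edgeR). *En1* was lower in 5 of 5 mice, with 96.1 and 153 CPM in mouse 2, 110 and 119 in mouse 3, 177 and 299 in mouse 5, 117 and 163 in mouse 7, and 68.1 and 151 in mouse 8. The fold change of *En1* was -0.59 ± 0.30 on the log2 scale (adjusted p = 0.802, edgeR). The other 5 had log2 fold changes from -1.29 ± 0.76 for *En2* to 0.32 ± 0.50 for *Lmx1a*, each less than 2 times its SE.

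Of 16 genes listed for the nigral type, 15 were tested and 2 rose in *Sox6*-only cells, with a list median log2 fold change of 1.04. *Igf1*, a growth factor, was at 296, 528, 192, 556, and 177 CPM in *Sox6*-only cells of mice 2, 3, 5, 7, and 8 and at 16.3, 26.6, 62.5, 73.6, and 10.2 CPM in *Otx2*-only cells, so that the classes did not overlap (3.29 ± 0.57, adjusted p = 0.0359, edgeR). *Lmo3*, a LIM-only cofactor, was at 689 ± 113 against 259 ± 87.2 CPM (SD, n = 5, log2 fold change 1.46 ± 0.27, adjusted p = 0.0486, edgeR). *Aldh1a7*, a neighbor of *Aldh1a1* in sequence whose reads may be shared with it, had 3.65 ± 0.84 (adjusted p = 0.153). *Bcl11a*, a zinc finger factor on the same list, had the opposite sign, -2.96 ± 0.65 (adjusted p = 0.123), and so did *Ntsr1* (-0.35 ± 0.29) and *Aldh1a1* (-0.11 ± 0.46), neither of which passed. In DESeq2 6 of the list rose and 1 fell. Neither *Igf1* nor *Lmo3* passed in edgeR in any of the 5 fits with 1 mouse left out (adjusted p from 0.0691 for both).

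Of 16 genes listed for the VTA type, 15 were tested and 3 fell in *Sox6*-only cells, with a list median of -1.77. *Neurod6*, a basic helix-loop-helix factor, was at 0.41, 1.32, 0.063, 0, and 0 CPM in *Sox6*-only cells of the 5 mice and at 29.0, 50.1, 193, 142, and 160 CPM in *Otx2*-only cells (-7.77 ± 0.96, adjusted p = 0.00556, edgeR). *Slc17a6*, the vesicular glutamate transporter of subcortical neurons, was at 25.2 ± 19.3 against 268 ± 127 CPM (SD, n = 5, -3.33 ± 0.61, adjusted p = 0.047, edgeR). *Foxp2*, a forkhead factor, was at 98.0 ± 27.3 against 270 ± 49.9 CPM (-1.41 ± 0.25, adjusted p = 0.0359, edgeR). *Lypd1* and *Marcks* of this list had the opposite sign, *Lypd1* in 5 of 5 mice (2.19 ± 0.86, adjusted p = 0.649, edgeR). By in situ hybridization the paper found *Lypd1* in the substantia nigra too, and seldom together with *Neurod6*. In DESeq2 7 of the list fell. With 1 mouse left out, *Neurod6* passed in edgeR except without mouse 5 (adjusted p = 0.0701), whereas *Slc17a6* and *Foxp2* passed in none of the 5 fits. With the mouse as a block none of either list passed. *Lmo3*, *Bcl11a*, and *Satb1* are also on the list of 34 partners and relatives of the factors, as are *Foxp2*, *Otx1*, and *Ebf3* of the VTA list. On the partners list 21 genes were tested, 2 rose (*Pbx3* and *Lmo3*), and 1 fell (*Foxp2*) in edgeR, with a list median of -0.36, and in DESeq2 5 rose and 4 fell. *Pbx3*, a TALE homeodomain cofactor, was at 248 ± 65.5 against 71.7 ± 16.5 CPM (1.85 ± 0.27, adjusted p = 0.0169, edgeR). It did not pass with the block (0.122), and with 1 mouse left out it passed only without mouse 8 (0.0211). *Otx1*, the paralog of *Otx2*, had -6.16 ± 1.33 (adjusted p = 0.114, edgeR). Of 8 dopamine genes, *Th* and *Slc6a3* among them, 0 passed in edgeR or DESeq2, and 0 had an unadjusted p under 0.05.

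Among genes on none of these lists, the largest called differences with the same direction in 5 of 5 mice and at least 10 CPM in the higher class were in *Gngt2*, *Cyp26b1*, *Cidea*, *Lhx1os*, *Igfbp4*, and *Crispld1*. *Gngt2* had no read in *Sox6*-only cells and 12.9 ± 9.68 CPM in *Otx2*-only cells (SD, n = 5). *Cidea* was at 0.33 ± 0.37 against 50.1 ± 26.6 CPM, *Igfbp4* at 1.20 ± 1.58 against 83.8 ± 49.4 CPM, and *Crispld1* at 0.18 ± 0.12 against 10.4 ± 6.92 CPM. Higher in *Sox6*-only cells were *Cyp26b1*, which breaks down retinoic acid, at 39.2 ± 47.6 against 0.24 ± 0.44 CPM, and *Lhx1os*, an antisense gene whose strand was not resolved, at 20.4 ± 19.5 against 0.13 ± 0.083 CPM. With the mouse as a block none of these 6 passed in edgeR (adjusted p = 0.0928 or more). With 1 mouse left out *Cidea* passed in 2 of 5 fits, *Cyp26b1* in 1, and the other 4 in none, and *Cyp26b1* had no adjusted p in DESeq2.

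**Figure D4:**
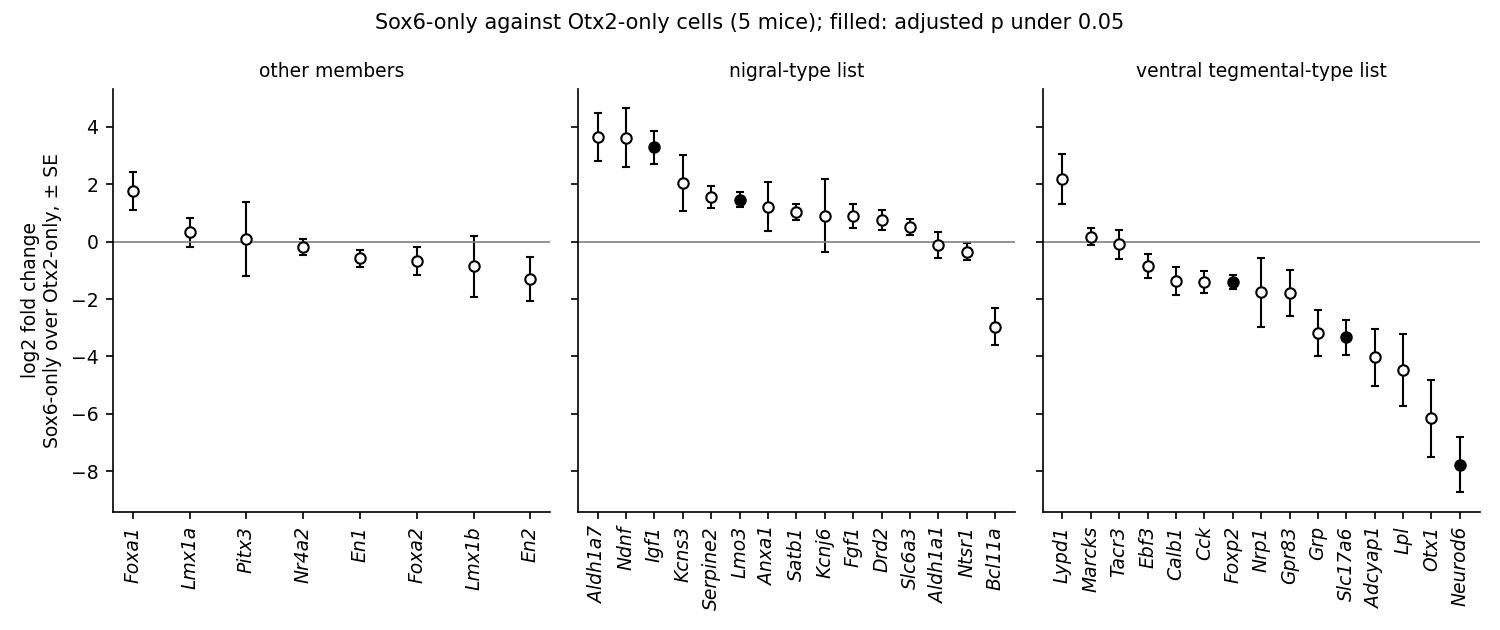
Log2 fold change of *Sox6*-only over *Otx2*-only *Th*-rich cells (y axis, ± SE from edgeR, 5 mice) for the other 8 factors, 15 genes listed for the nigral type, and 15 listed for the VTA type, with filled points past an adjusted p of 0.05. No factor is filled, *Igf1* and *Lmo3* are filled above 0, and *Foxp2*, *Slc17a6*, and *Neurod6* are filled below 0.

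*Th*-rich and *Th*-poor cells were compared next, again in 5 mice that had 3 or more cells in both (mice 1, 2, 4, 5, and 6, with 8–34 *Th*-rich and 3–6 *Th*-poor cells). *En1*, *Foxa2*, *Otx2*, and the low *En2* were higher in *Th*-rich cells in every one of these mice, and *Nr4a2* and *Lmx1a* were not separated. In edgeR 49 of 11126 genes (0.44%) were higher and 16 (0.144%) lower in *Th*-rich cells, with *Th* itself setting the classes. The median log2 fold change of all genes was -0.11, and it was -0.20 in DESeq2 and 0.32 with the mouse as a block. Of the 9 factors that passed the filter on low counts, all but *En2*, 0 passed in edgeR, and their median log2 fold change was 0.68. An unadjusted edgeR p under 0.05 was reached by 1054 of the 11126 genes (9.47%) and by 3 of the 9 factors. These 3, *Otx2*, *En1*, and *Foxa2*, passed in DESeq2, where 181 genes (1.63%) were called higher. With the mouse as a block 13 genes (0.117%) and none of the factors passed.

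*En1* was at 69.9 CPM in *Th*-rich and 6.93 CPM in *Th*-poor cells of mouse 1, 120 and 20.7 in mouse 2, 121 and 0 in mouse 4, 201 and 11.4 in mouse 5, and 95.7 and 2.65 in mouse 6. The classes did not overlap (log2 fold change 3.72 ± 0.93 (SE), adjusted p = 0.135 in edgeR and 0.00092 in DESeq2). *En1* was detected in 3 of 23 *Th*-poor cells (13.0%, 2.78–33.6%), against 95.6% of *Th*-rich cells. *Foxa2* was at 29.2 and 3.08 CPM in mouse 1, 27.4 and 2.07 in mouse 2, 11.5 and 0.32 in mouse 4, 39.4 and 1.01 in mouse 5, and 7.43 and 0 in mouse 6. These did not overlap either (3.99 ± 1.13, adjusted p = 0.207 in edgeR and 0.00295 in DESeq2), and *Foxa2* was detected in 1 of 23 *Th*-poor cells (4.35%). *En2*, which was too low to be tested, was at 1.49–8.77 CPM in *Th*-rich and 0–1.32 CPM in *Th*-poor cells, from 373 and 8 reads, and in mouse 6 the classes were close, at 1.49 and 1.32 CPM.

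*Otx2* was at 23.2 CPM in *Th*-rich and 2.05 CPM in *Th*-poor cells of mouse 1, and at 29.5, 33.5, 31.1, and 15.4 CPM in *Th*-rich cells of mice 2, 4, 5, and 6, where no read was counted in *Th*-poor cells (5.79 ± 1.41, adjusted p = 0.12 in edgeR and 0.000117 in DESeq2). All reads of *Otx2* in the *Th*-poor cells of mouse 1 came from 1 of the cells with *Slc1a3*. In the 18 *Th*-poor cells with *Snap25*, *Otx2* was detected in 1, a cell of mouse 7 at 59.3 CPM. Mouse 7 was outside the test, and with the mice that had a single *Th*-poor cell added the fold change of *Otx2* was 1.84. With only cells with *Snap25* (mice 1, 4, 5, and 6), 67 genes (0.606%) were higher in *Th*-rich cells and *Otx2* was among them (adjusted p = 0.0472, edgeR). There it had 1436 reads in *Th*-rich and 0 in *Th*-poor cells, at least 107-fold higher against a floor of 3 reads over the group. With the mouse as a block in these cells *Otx2* did not pass (adjusted p = 0.254, edgeR). In the same cells without the block, *En1* had a log2 fold change of 4.87 and an adjusted edgeR p of 0.0636, and *Foxa2* one of 5.93 and 0.0951. *Sox6* was at 2.69, *Foxa1* at 0.20, *Nr4a2* at 0.11, *Lmx1b* at -0.44, and *Lmx1a* at -0.98 on that scale, none of which passed, and *Pitx3* was not tested. With all *Th*-poor cells, *Otx2* passed without mouse 1 (adjusted p = 0.0449, edgeR). *En1* passed when mice with 1 cell in a class were added (adjusted p = 0.0385, edgeR) and when cells down to 100000 reads were kept (0.0356).

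*Nr4a2* was at 343 and 106 CPM in *Th*-rich and *Th*-poor cells of mouse 1, 284 and 194 in mouse 2, 310 and 406 in mouse 4, 407 and 349 in mouse 5, and 407 and 382 in mouse 6, with overlapping classes (0.23 ± 0.32, adjusted p = 0.899, edgeR). It was detected in 18 of 23 *Th*-poor cells, and in 18 of 18 with *Snap25* (interval from 81.5%). *Lmx1a* was at 54.1 and 23.1 CPM in mouse 1, 58.4 and 74.0 in mouse 2, 29.3 and 162 in mouse 4, 44.2 and 138 in mouse 5, and 60.6 and 27.3 in mouse 6, higher in *Th*-poor cells in 3 of 5 mice (-0.84 ± 0.56, adjusted p = 0.707, edgeR). *Sox6* was higher in *Th*-rich cells in 4 of 5 mice, but in mouse 1 it was at 10.3 CPM in *Th*-rich and 68.8 CPM in *Th*-poor cells (1.06 ± 1.21, adjusted p = 0.863, edgeR). Most of that value came from the cells with *Slc1a3*, 1 of which had 443 CPM of *Sox6*. *Foxa1* (0.68 ± 1.08), *Pitx3* (0.37 ± 1.52), and *Lmx1b* (0.21 ± 1.23) had fold changes smaller than their SE, and their sign changed in 2, 2, and 5 of the alternative settings.

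**Figure D5:**
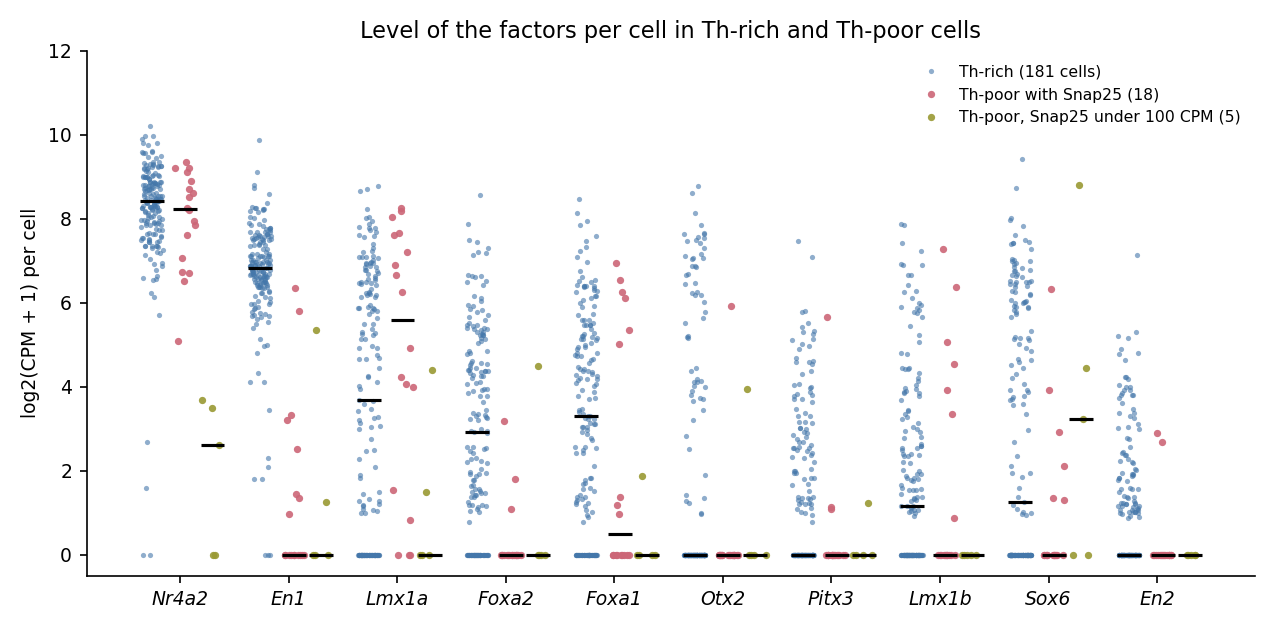
Level of each factor, log2(CPM + 1), in each of 181 *Th*-rich cells (blue), 18 *Th*-poor cells with *Snap25* (red), and 5 *Th*-poor cells with *Snap25* under 100 CPM (green), with the median of each class as a bar. The classes overlap for *Nr4a2* and *Lmx1a*, whereas most red points of *En1*, *Foxa2*, and *Otx2* lie at 0.

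Of 7 dopamine genes tested besides *Th*, which set the classes, 5 rose in *Th*-rich cells in edgeR: *Slc6a3* (3.01 ± 0.26, adjusted p = 0.00017), *Slc18a2* (2.11 ± 0.25, 0.00196), *Drd2* (5.99 ± 0.87, 0.0126), *Gch1* (4.15 ± 0.69, 0.0243), and *Aldh1a1* (5.59 ± 1.11, 0.0462). *Slc6a3*, the dopamine transporter, was at 3314 ± 499 against 391 ± 129 CPM (SD, n = 5), and the D2 receptor gene *Drd2* at 123 ± 28.0 against 1.78 ± 2.36 CPM. With the mouse as a block *Slc6a3* and *Slc18a2* passed, and in DESeq2 all 7. With only cells with *Snap25*, 4 of the 7 passed in edgeR, *Aldh1a1* at 7.91 (adjusted p = 0.00246) and *Gch1* no longer (3.59, adjusted p = 0.0575). In these cells and with the block, *Slc6a3* (adjusted p = 0.00644) and *Aldh1a1* (0.0236) passed in edgeR, and *Slc18a2* (0.0712) and *Drd2* (0.104) did not. With 1 mouse left out, *Slc6a3* and *Slc18a2* passed in 5 of 5 fits, *Drd2* and *Gch1* not without mouse 4, 5, or 6, and *Aldh1a1* only without mouse 2. Of the 34 partners and relatives 23 were tested, 1 rose and none fell in edgeR, with a list median of -0.37. In DESeq2 3 rose and 1 fell, and in edgeR with only cells with *Snap25* 1 rose and 1 fell. *Lmo3*, also among those with the lowest p, did not pass (1.25 on the log2 scale, adjusted p = 0.0966, edgeR).

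The 18 *Th*-poor cells with *Snap25* had a median of 3 factors (mean 2.61), against 4 (mean 4.46) in *Th*-rich cells. All 18 had *Nr4a2*, and 13 (72.2%, 46.5–90.3%) had *Lmx1a*. *Foxa1* was detected in 6, *Lmx1b* in 5, *En1* in 2, and *Otx2*, *Pitx3*, and *Sox6* in 1 each, whereas *Foxa2* and *En2* were in 0 of 18 (upper limit 18.5%). *Slc17a6* was detected in 18 of 18 cells (median 646 CPM), against 93 of 181 *Th*-rich cells (51.4%, median 12.3 CPM). Of 7 hypothalamic markers 2 were detected in any of the 18 cells, and *Otp*, *Isl1*, and *Dlx2* were at 0. The summed level of 9 immediate early genes, which rise with cell stress or activity, was also higher in these cells, with a median of 1410 CPM (3.62–3887) against 190 CPM (0–4773) in *Th*-rich cells, and its part in the differences was not tested. Of 4 astrocyte markers 1 was detected and *Aqp4*, *Aldh1l1*, and *Slc1a3* were at 0, and of 4 oligodendrocyte markers 1 was detected, with a summed median of 55.1 CPM (0–162) against 1.58 (0–1247) in *Th*-rich cells. In the cells with *Snap25* under 100 CPM, immediate early genes had a median of 17727 CPM, and the cell with *Mbp* had none of the 10 factors at 10 reads.

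Genes whose level was most like that of each factor were sought among 10313 genes over the 181 *Th*-rich cells by Pearson correlation of log2(CPM + 1), as a description. For *Nr4a2* they included *Chl1* (r = 0.60) and *Ret* (0.60). For *En1* they were *Slc10a4* (0.60), *Insig1* (0.60), and *Fgf13* (0.59). *Otx2* had the closest matches, *Lpl* (0.70), *Kcnab1* (0.69), and *Cbln4* (0.63), and for *Sox6* they were *Aldh1a7* (0.51), *Nrgn* (0.51), and *Gldn* (0.50). The lowest value with *Sox6* was that of the calcium-binding protein gene *Calb1* (-0.62), and with *Otx2* that of the calcium channel subunit gene *Cacna2d3* (-0.53). *Foxa1* was most like *Kcns3* (0.46), *Epha4* (0.45), and *Cplx1* (0.43), and *Foxa2* most like *Lsamp* (0.35), *Spire2* (0.34), and *Endod1* (0.34). For *Lmx1a* they were *Tmeff2* (0.45), *Lsamp* (0.43), and *Hlf* (0.41), for *Lmx1b* *Vwc2l* (0.35), *Jam2* (0.34), and *Etv6* (0.30), and for *Pitx3* *Dgkz* (0.37), *Ntm* (0.37), and *App* (0.33). *En2*, detected in fewer than 10% of the cells, was left out.

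Between the sexes, on *Th*-rich cells summed per mouse, 0 of the 10 factors passed in edgeR, where 5 of 15032 genes did (0.0333%), and 0 in DESeq2, where 145 did (0.965%). No factor had an unadjusted edgeR p under 0.05, against 1188 of all genes (7.90%). All 10 log2 fold changes of males over females were positive, from 0.07 for *Nr4a2* to 1.05 for *Foxa1*, but for *En2*, *Lmx1b*, *Nr4a2*, and *Sox6* the sign changed in at least 1 alternative setting. *En1* was at 120, 107, 201, 156, and 130 CPM in the males and 69.9, 121, and 95.7 CPM in the females (0.52 ± 0.27, adjusted p = 0.699, edgeR). *Foxa1* was at 20.8, 23.8, 73.3, 26.2, and 17.3 CPM in males and 10.8, 6.30, and 27.7 CPM in females (1.05 ± 0.61, adjusted p = 0.757, edgeR). The sexes overlapped for all 10. Of the C1 machines named in the labels, 1 ran only males (mice 3, 5, and 8). The females were 25, 33, and 36 days old and the males 24–28 days, so 2 of the 3 females were older than every male, and the part of age was not tested.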

How the data were processed

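Single-cell libraries (SMARTer, Nextera XT, HiSeq 2500) were trimmed by the authors with Trimmomatic 0.3.2, aligned to GRCm38 with TopHat2 2.1.1, and assigned to RefSeq genes by featureCounts 1.5.0-p3, whose counts were deposited without normalization. Reads on several genes and chimeric fragments, wells with 2 cells, and cells with little cDNA had been left out by the authors. Whether counting used strand is not stated. The deposited table has 47082 rows, of which 5721 hold no counts and 95 are transgenes or spike-ins (0.00457% of reads). The sexes and ages of the sample labels were used, which differ from those in the series description. The alignment metrics, which are given without cell names, were not used.

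Cells of fewer than 500000 reads on genes were left out. Counts were summed per mouse and class, for mice that had 3 or more cells in both, and edgeR 4.0.16 was run (TMM, filterByExpr, quasi-likelihood, Benjamini-Hochberg over all genes tested, threshold 0.05) in R 4.3.3, with DESeq2 1.42.0 as the alternative. The SE of a log2 fold change is its size over the square root of the F statistic. The paper's test used cells as replicates and was not followed. The classes come from the same mice, so the mouse was tried as a block. After the class means were removed, the classes of a mouse correlated by 0.027–0.172 for *Th* and 0.016–0.149 for *Sox6* and *Otx2*. Detection was compared over mice with an exact sign-flip permutation test in Python 3.11.15 (numpy 2.4.6, pandas 2.3.3, scipy 1.17.1), and figures were drawn with matplotlib 3.10.9. Exon lengths are from GENCODE M21 and gene positions from RefSeq GRCm38.p6. The count tests were run on simulated data first.

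The members, gene lists, and classes were chosen with earlier results of these data known. Named genes are the 10 factors, 8 dopamine genes, up to 6 partners with the lowest p, the nigral and VTA lists, the 3 genes most like each factor, and up to 6 further genes with the largest called change. The cell with *Otx2* in mouse 7 and the genes given for cells without *Nr4a2* were chosen after their values were seen. Results of some genes under these rules are not reported here. Other settings included other thresholds on reads, thinning to 500000 reads, other limits on *Th*, each mouse left out, 1 lane or machine, and, added after the data were seen, cells with *Snap25* at 100 CPM or more (for *Sox6* and *Otx2* detection, without *Th*-poor cells below it). Mice are 1 C1 run each, so p-values measure the spread between mice and runs together.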

Additional observations from a re-analysis of the deposited data

Results flagged for a closer look

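Of 46 groups of 5 to 8 mice tested with Dixon's test for a mouse far from the others, 12 had one. The rate of about 1 in 20 by chance holds for independent, normally distributed values. These are low counts and shares that reuse the same mice, so the 12 cannot be set against that rate. Mouse 1 was the lowest of 8 in the share of *Th*-rich cells with *Nr4a2* (81.8%, median 100%) and with *En1* (63.6%, median 97.5%), and the highest of 5 in the *Th*-poor level of *Otx2* (2.05 CPM, median 0) and *Sox6* (68.8 CPM, median 5.70). Mouse 5 was the highest in the *Th*-rich level of *Pitx3* (16.1 CPM, median 4.85), *En2* (8.77 CPM, median 2.96), and *Foxa1* (73.3 CPM, median 22.3), in the share of *Th*-rich cells with *Pitx3* (38.2%, median 11.9%), in *Pitx3* in *Sox6*-only cells (21.0 CPM, median 2.62), and in *En1* in *Otx2*-only cells (299 CPM, median 153). Mouse 2 was the highest of 5 in the *Th*-poor level of *Pitx3* (21.9 CPM, median 0) and in *Lmx1b* in *Sox6*-only cells (20.9 CPM, median 7.73). Outside the genes, the table has entries for transgenes. The tdTomato entry had 2437 reads, in 187 of 209 cells (89.5%). An entry named CreER had 6021 reads, in 138 of 209 cells (66.0%), with no read in the 5 *Th*-poor cells with *Snap25* under 100 CPM. The mice have no wild-type control for either entry.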

How the results depend on the processing

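For *Th*-rich against *Th*-poor cells, 65 genes passed in edgeR. The count was 408 with DESeq2 (181 higher and 227 lower, against 49 and 16), 35 without the filter on low counts, 13 with the mouse as a block, 2 with *Th* at 2000 CPM or more against under 100 CPM, 102 with cells from 100000 reads, 0 within lane 1 and 0 within lane 2, 10 with cells with *Snap25* and the block, and 11–131 with 1 mouse left out, the highest without mouse 1 and the lowest without mouse 6. Of the factors 0 passed, but 3 did with DESeq2, 1 with mice of a single cell added, 1 with cells from 100000 reads, 1 with cells with *Snap25*, and 0–1 with 1 mouse left out. For *Sox6*-only against *Otx2*-only cells, the 26 genes became 176 with DESeq2, 16 without the filter, 4 with the mouse as a block, 9 with mice of a single cell added, 1 with thinned cells, 0 with 50 reads required, and 1–9 with 1 mouse left out. None of the other 8 factors passed in any of these settings. Between the sexes the 5 genes became 145 with DESeq2, 1 on the machine that ran both, and 3–4 with 1 mouse left out, and 0 factors passed in each. The difference in *Otx2* detection was -14.6 points (exact permutation p = 0.125) with 50 reads required, -25.6 with 1 read required, and -28.5 to -22.8 with 1 mouse left out. The cause of these changes was not tested. With only cells with *Snap25*, the mouse as a block ended the call of *Otx2* (adjusted p = 0.254, edgeR). Between *Sox6*-only and *Otx2*-only cells it ended that of *Otx2* (0.0914), which sets these classes, and it changed no other call of a factor. Of 376 fold changes of factors under other settings, 29 had the other sign without passing in either. Of 40 shares of detected cells, 24 left the main interval, 19 of them with 1 or 50 reads required: *Pitx3* was detected in 45.0% of the 209 cells from 1 read and in 2.39% from 50, and *En2* in 44.0% and 0.478%.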
